A study of Mus musculus with 12 samples.

Results

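T cells with a short beta CDR3 loop were described here, as seen in T cell receptor (TCR) libraries of leukocytes from mouse tumours. A cell was taken as a barcode with exactly 1 distinct TRB (beta) chain and 1 or 2 TRA (alpha) chains, and its beta loop was called short when the deposited CDR3 had 11 or fewer amino acids, counted with the first cysteine and the last phenylalanine. This rule gave 635 of 19115 cells, which made up 489 of 10624 clonotypes. Cells of 1 library form a clonotype when they have in common a TRB chain (its V, its J and the bases of its CDR3) as well as at least 1 TRA chain. Short loops are compared throughout with the most frequent lengths, 13 to 15 amino acids, which held 13922 cells and 7811 clonotypes.

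The mice were C57BL/6J, 6 to 8 weeks old, and carried subcutaneous tumours of 300000 inoculated MC38-p53KO cells, a derivative of the mouse colon carcinoma line MC38 that is named as lacking p53 and is given a p53 substitution in conflicting notations. On day 10, at 50 to 100 mm³, each tumour received a single intratumoral dose of 40 µg of LNP-P20-mAb or of LNP-Ctrl. By its title, the series is about an antibody to p53 mutations that are frequent in cancers. Viable cells were sorted for CD45, a protein on the surface of all leukocytes, and about 10000 per sample entered 10x Genomics 5′ libraries with TCR enrichment. There were 3 TCR libraries of LNP-P20-mAb tumours and 3 of LNP-Ctrl tumours, while the 6 samples of gene expression were not analysed here. The labels do not state whether each library is its own animal, so the spread between libraries, on which the p-values rest in whole or in part, may be technical.

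The CDR3 is the loop of a TCR chain that is made anew in each T cell, where a V segment is joined to a J segment, in the beta chain with a D segment between them. Nucleases trim the segment ends and terminal transferase adds untemplated bases, so the same segments give loops of different lengths. In the folded receptor the CDR3 loops of the beta and alpha chains lie side by side over the peptide held by an MHC molecule. The beta loop is built first, in an immature thymocyte, and the alpha chain follows later.

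The libraries held 5050 to 9982 assembled chains, 85835 to 145847 UMIs (unique molecular identifiers) and 2016 to 3923 cells that met the rule on chains. None of the 48792 chains was a gamma, delta or immunoglobulin chain. Libraries shared 6 to 22 cell barcodes per pair. LNP-P20-mAb 1 and LNP-P20-mAb 2 stood apart, since they carried the same clones, and the values most moved by leaving both out are given beside the results. These libraries shared 6 short-loop clonotypes, which were 21.4% and 33.3% of their own short-loop clonotypes, and 88 of the 13 to 15 class, which were 21.3% and 29.4% of that class. Beyond them, LNP-P20-mAb 3 and LNP-Ctrl 3 were the other pair with a short-loop clonotype in common, with 1.

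The receptor sequences below show how a short beta loop is put together. Each is the CDR3 of the TRB chain in bases as deposited, 5′ to 3′, with the bases between the part that matches the V segment and the part that matches the J segment in capitals. Lines without capitals have no base between them. The ends of the segments were estimated from the chains themselves and may be off by a few bases. The first and second lines are the shortest loop and another of the shortest, the next 3 are alike receptors with 1 alpha combination, then comes the large clone that LNP-P20-mAb 1 and 2 share, and the last is the loop that recurred in most libraries.
CEQYF, TRBV19 and TRBJ2-7, LNP-Ctrl 1: tgtgaacagtacttc
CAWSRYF, TRBV31 and TRBJ2-7, LNP-Ctrl 2: tgtgcctggagCCGgtacttc
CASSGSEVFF, TRBV13-3 and TRBJ1-1, LNP-Ctrl 1: tgtgccagcagtgGTTcagaagtcttcttt
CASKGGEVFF, TRBV13-3 and TRBJ1-1, LNP-Ctrl 3: tgtgccagcaAGGGGGGagaagtcttcttt
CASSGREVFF, TRBV13-3 and TRBJ1-1, LNP-Ctrl 3: tgtgccagcagtgGCAGGgaagtcttcttt
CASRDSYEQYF, TRBV29 and TRBJ2-7, LNP-P20-mAb 1: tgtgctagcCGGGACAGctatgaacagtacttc
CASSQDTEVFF, TRBV5 and TRBJ1-1, LNP-P20-mAb 3: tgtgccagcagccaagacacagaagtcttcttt

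Most short loops lay at the upper limit of the rule. There were 372 clonotypes (480 cells) with 11 amino acids, 102 (140 cells) with 10, 7 with 9, 4 with 8, 3 with 7 and 1 with 5. Just outside the limit, 12 amino acids were found in 996 clonotypes and 1924 cells. The 15 clonotypes of 9 or fewer amino acids were all seen in 1 cell each. The shortest, CEQYF, kept 4 bases that match TRBV19 and 11 that match TRBJ2-7, with none between. Next came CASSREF (TRBV10 and TRBJ2-7) and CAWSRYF in LNP-Ctrl 2 and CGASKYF (TRBV20 and TRBJ2-7) in LNP-Ctrl 3, all with TRBJ2-7. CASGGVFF with TRBJ1-1 in LNP-Ctrl 2 is 1 of the 4 clonotypes of 8 amino acids, the first of them by name.

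Counted once per clonotype, short loops had nearly the same share of every library, whereas counted by cell they had a lower share in all LNP-P20-mAb libraries than in any LNP-Ctrl library. The share of clonotypes was 4.98%, 4.5% and 3.99% in LNP-P20-mAb libraries 1, 2 and 3, against 5.00%, 4.46% and 4.71% in LNP-Ctrl libraries 1, 2 and 3. The groups overlap, with means of 4.49 ± 0.497% for LNP-P20-mAb and 4.73 ± 0.269% for LNP-Ctrl (SD, n = 3 each, two-sided exact permutation p = 0.6). The difference of -0.235 percentage points was -0.737 without LNP-P20-mAb 1 and 2 (exact permutation p = 0.25) and 0.0157 without LNP-P20-mAb 3 (exact permutation p = 0.8). The share of cells was 1.32%, 1.44% and 3.17% in LNP-P20-mAb libraries, against 4.23%, 3.90% and 4.79% in LNP-Ctrl libraries. The 3 LNP-P20-mAb values lie below the 3 LNP-Ctrl values, and LNP-P20-mAb 1 and 2, which share clones, are the lowest. The means were 1.97 ± 1.03% for LNP-P20-mAb and 4.31 ± 0.450% for LNP-Ctrl, a difference of -2.33 percentage points with an exact permutation p of 0.1. That is the smallest p that 3 against 3 libraries allow, and it became 0.2 after Benjamini-Hochberg adjustment over both shares, so neither share passed the threshold of 0.05. Without LNP-P20-mAb 1 and 2 the difference in the share of cells was -1.14 percentage points (exact permutation p = 0.25, the smallest for 1 against 3 libraries). With a limit of 12 amino acids it was -0.416 (exact permutation p = 0.7), where clones of up to 264 cells with 12 amino acids come in. The cell numbers behind these shares were 43, 29 and 90 short-loop cells in LNP-P20-mAb libraries, against 141, 153 and 179 in LNP-Ctrl libraries, and the 95% exact binomial interval of LNP-P20-mAb 2, the smallest, ran from 0.965% to 2.06%. Intervals and limits given here cover counting error only, and where none was counted the limit is 3 divided by the number examined.

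**Figure D1:**
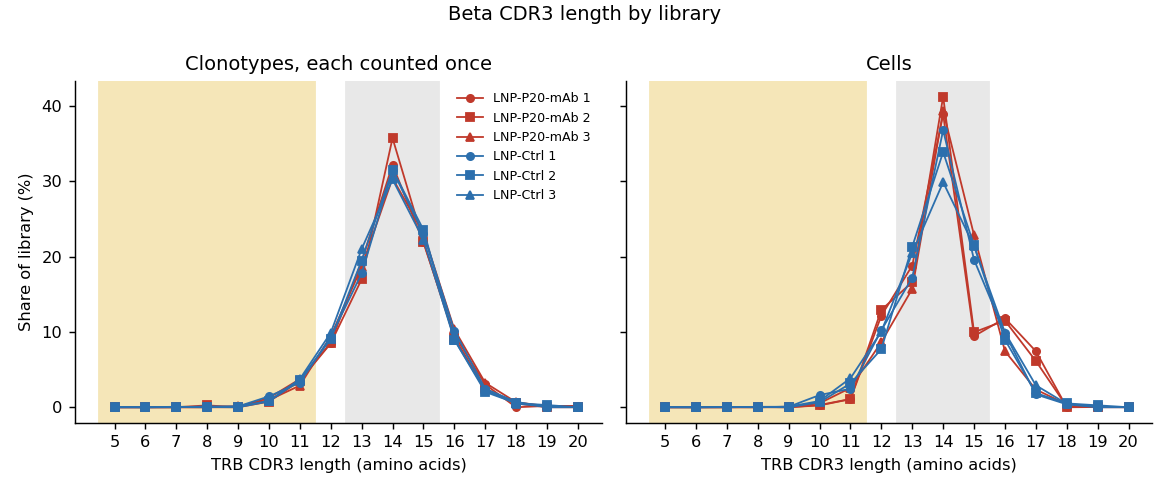
Share of each library (%) by length of the TRB CDR3 in amino acids, for clonotypes counted once (left) and for cells (right), with LNP-P20-mAb libraries in red, LNP-Ctrl libraries in blue, loops of 11 or fewer amino acids on a yellow ground and the 13 to 15 class on a grey one. The clonotype curves of all 6 libraries lie close together, with 3.99% to 5.00% of clonotypes in the yellow range, while the cell curves spread apart.

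Segments of the beta chain differed between short loops and loops of 13 to 15 amino acids, above all the J segments. Of 147 V and J segments of both chains that were tested with edgeR on numbers of clonotypes, with Benjamini-Hochberg adjustment, 9 passed an adjusted p of 0.05, which is 6.12% of those tested, 4 higher and 5 lower in short loops. By locus, 5 of 12 TRBJ segments passed (2 higher, 3 lower), 3 of 22 TRBV (1 higher, 2 lower), 1 of 70 TRAV (higher) and 0 of 43 TRAJ, where 1 had an unadjusted edgeR p of 0.05 or lower. Over all loci DESeq2, the other tool, called 7 segments, all among these 9, and left 108 of 147 adjusted p-values undefined. The median log2 difference was -0.82 over the TRBJ segments, 0.01 over TRBV, -0.16 over TRAV and -0.05 over TRAJ, against -0.14 over all segments tested. A beta segment's own length is part of the loop length that set the classes, so the tests on beta segments describe what short loops are made of and are not independent of the rule. Under TMM scaling, which assumes that most segments keep their share, 5 segments passed, 1 higher and 4 lower. The variance of a segment is estimated by edgeR with the help of all tested segments. A very small edgeR p-value therefore does not rest on that segment's spread over the 6 libraries alone.

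TRBJ2-7 was the main J segment of short loops. It was used by 46.4%, 44.4% and 31.5% of short-loop clonotypes in LNP-P20-mAb libraries and by 44.4%, 44.2% and 43.5% in LNP-Ctrl libraries. Among loops of 13 to 15 amino acids its share was 20.8%, 19.7% and 20.8% in LNP-P20-mAb libraries and 18.7%, 20.1% and 16.2% in LNP-Ctrl libraries. Every library had the higher share in short loops, without overlap, with means of 42.4 ± 5.44% in short loops and 19.4 ± 1.74% in the 13 to 15 class (SD, n = 6). The log2 difference was 1.19 ± 0.10 (SE, edgeR, adjusted p = 8.2e-22). TMM scaling gave a log2 difference of 0.65 and an adjusted p of 0.0978 by edgeR, which no longer passed.

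TRBJ1-1 was the other J segment that was more used in short loops. Its share was 10.7%, 11.1% and 27.8% in LNP-P20-mAb and 16.7%, 20.3% and 16.8% in LNP-Ctrl short-loop clonotypes. In the 13 to 15 class it was 6.78%, 8.70% and 8.90% in LNP-P20-mAb and 9.98%, 9.41% and 10.6% in LNP-Ctrl libraries. The share was higher in short loops in each of the 6 libraries, and the lowest short-loop value was only just above the highest value of the other class. The log2 difference was 0.93 ± 0.17 (edgeR, adjusted p = 5.1e-06), and under TMM scaling it was 0.53 (edgeR, adjusted p = 0.337). With cells counted it was 0.78 and did not pass (edgeR, adjusted p = 0.452).

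TRBJ2-3, TRBJ2-1 and TRBJ1-4 were less used in short loops, in each of the 6 libraries. TRBJ2-3 averaged 2.25 ± 1.32% of short-loop clonotypes and 8.72 ± 1.42% of the 13 to 15 class (log2 difference -1.82 ± 0.34, edgeR adjusted p = 5.1e-06). TRBJ2-1 averaged 5.71 ± 3.54% and TRBJ1-4 averaged 1.25 ± 1.18% of short-loop clonotypes, against 14.1 ± 2.51% and 6.27 ± 1.05% of the 13 to 15 class. Their log2 differences were -1.17 ± 0.22 and -1.88 ± 0.40, with edgeR adjusted p-values of 4.1e-05 and 9.1e-05. None of the 3 passed for loops of 10 or fewer amino acids (edgeR adjusted p = 0.188 for TRBJ2-3, 0.118 for TRBJ2-1 and 0.0716 for TRBJ1-4). TRBJ2-1 and TRBJ1-4 did not pass with cells counted (edgeR adjusted p = 0.0774 each). The other 7 TRBJ segments had log2 differences of -1.51 (TRBJ1-6) to -0.14 (TRBJ2-4) and did not pass.

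Seen from the segment, 9.86% of all TRBJ2-7 clonotypes and 8.56% of TRBJ1-1 clonotypes had a short loop, against 1.26% of TRBJ2-3, 1.32% of TRBJ1-4 and 1.63% of TRBJ1-6 clonotypes. TRBJ2-7 also brought the fewest bases to an untrimmed loop, an estimated 18, and TRBJ1-6 the most, 25. TRBJ1-1 and TRBJ2-5 both brought 20 bases, yet 8.56% of TRBJ1-1 and 3.59% of TRBJ2-5 clonotypes were short, so the order by length of the segment is not the order by share.

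Among the V segments, TRBV20 was higher in short loops and TRBV5 and TRBV3 were lower. TRBV20 encodes a loop that opens with CGA in place of CAS and brought an estimated 14 bases, against 17 for TRBV5. However, TRBV10 and TRBV30 brought 13 bases each, TRBV2 17 and TRBV1 18, and none of these passed. TRBV3 brought 16 bases, as did TRBV16, whose log2 difference was 0.004. The order by length of the V segment is thus not the order by log2 difference. TRBV20 was found in 7.14%, 11.1% and 1.85% of LNP-P20-mAb and in 0%, 7.97% and 12.4% of LNP-Ctrl short-loop clonotypes. In the 13 to 15 class its shares were 2.91%, 2.01% and 2.05% in LNP-P20-mAb and 0.307%, 3.03% and 3.30% in LNP-Ctrl libraries. Thus 4 libraries had the higher share in short loops, while in LNP-P20-mAb 3 and LNP-Ctrl 1 it was lower, and LNP-Ctrl 1 was low in both classes, with 0 of 90 short-loop clonotypes, which allows up to 3.33%. The log2 difference of TRBV20 was 1.53 ± 0.35 (edgeR adjusted p = 0.000253), and it fell short of the threshold without LNP-Ctrl 3 (1.21, adjusted p = 0.149) and under TMM scaling (1.10, adjusted p = 0.134). It was 0.93 for loops of 10 or fewer amino acids (edgeR adjusted p = 0.605) and 0.47 with cells counted (edgeR adjusted p = 0.91).

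TRBV5 averaged 3.37 ± 1.84% of short-loop clonotypes and 7.71 ± 0.996% of the 13 to 15 class and was lower in 6 of 6 libraries (log2 difference -1.57 ± 0.35, edgeR adjusted p = 0.000253). TRBV3 averaged 4.23 ± 2.8% of short-loop clonotypes and 6.21 ± 3.48% of the 13 to 15 class and was lower in 4 of 6 libraries (-0.89 ± 0.30, adjusted p = 0.0422). TRBV3 was close to the threshold and did not pass without LNP-Ctrl 1 (-0.73, edgeR adjusted p = 0.362) or without LNP-Ctrl 2 (-0.64, edgeR adjusted p = 0.496). It passed in 9 of 16 alternatives; the adjusted p was 0.0991 by DESeq2 and, by edgeR, 0.121 under TMM scaling, 0.0522 with no filter, 0.605 for loops of 10 or fewer and 0.0774 with cells counted. TRBV5 did not pass with cells counted (-1.76, edgeR adjusted p = 0.0865). The remaining 19 TRBV names did not pass, among them TRBV29 with a log2 difference of 0.75 ± 0.29 and a higher share in 6 of 6 libraries (adjusted p = 0.12). Chains named jointly TRBV12-2 and TRBV13-2 in the files were the most frequent V name of short loops, with 67 clonotypes, and did not pass (0.50 ± 0.19, adjusted p = 0.123). The joint name can split a clone: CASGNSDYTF in LNP-P20-mAb 1 was listed under the joint name in some cells and under TRBV13-2 in another.

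**Figure D2:**
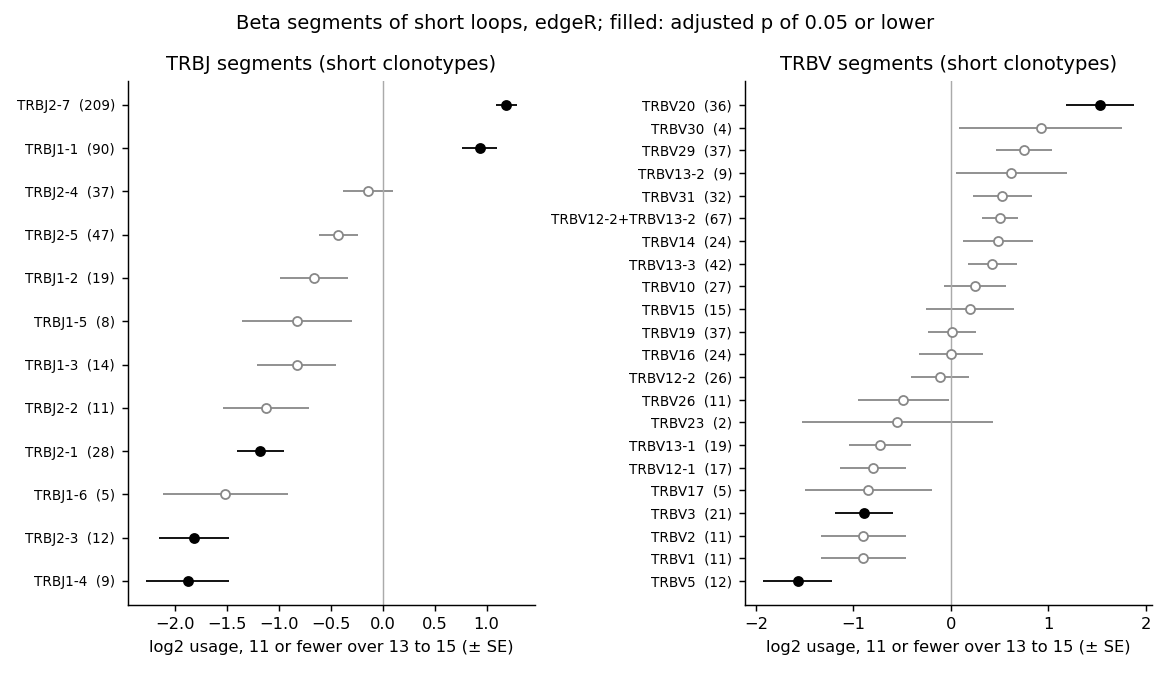
Log2 usage of TRBJ (left) and TRBV (right) segments in loops of 11 or fewer amino acids over loops of 13 to 15, with the SE derived from the edgeR fit. Filled points passed an adjusted p of 0.05, and the number of short-loop clonotypes stands in brackets. TRBJ2-7 and TRBJ1-1 lie alone on the right of the J panel, and TRBV20 and TRBV5 form the ends of the V panel.

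The alpha chain is made from another locus, and its segments played no part in the rule. TRAV13-2 was the only alpha segment that passed. It was found in 3.57%, 0% and 3.70% of LNP-P20-mAb and in 2.22%, 4.35% and 3.11% of LNP-Ctrl short-loop clonotypes. In the 13 to 15 class it was found in 0.242%, 0.669% and 0.614% of LNP-P20-mAb and in 1.54%, 0.650% and 0.796% of LNP-Ctrl clonotypes. The share was higher in short loops in 5 of 6 libraries, and the exception, LNP-P20-mAb 2, had 0 of 18, which allows up to 16.7%. The log2 difference was 1.96 ± 0.49 (edgeR adjusted p = 0.00127), and without LNP-Ctrl 2 it was 1.66 (adjusted p = 0.138). It also did not pass for loops of 10 or fewer amino acids (1.49, edgeR adjusted p = 0.605) or with cells counted (2.35, edgeR adjusted p = 0.0774), and DESeq2 left its adjusted p undefined.

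TRAV13-2 rested on 16 short-loop clonotypes, against 64 in the 13 to 15 class. They did not come from 1 clone: they used 9 TRBV names, 7 TRBJ and 11 TRAJ segments in 5 libraries, and 14 of them were single cells. TRBJ2-7 was in 9 of the 16. In LNP-Ctrl 1 and LNP-Ctrl 2 a TRAV13-2 chain with TRAJ30 was paired with the same beta loop, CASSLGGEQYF of TRBV16 and TRBJ2-7, written in different bases. Mouse TRAV segments have near-identical copies, between which the naming of chains is uncertain, and the copy TRAV13N-2 was in 8 short-loop clonotypes and 118 of the 13 to 15 class (log2 difference 0.15 ± 0.58, edgeR adjusted p = 0.918).

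A D segment was rarely recognised in short loops. The D call is read from the same sequence whose length set the classes, so its test is not independent of the rule. The share of clonotypes without a D call in the files was 100%, 100% and 88.9% in LNP-P20-mAb and 94.4%, 91.3% and 91.9% in LNP-Ctrl libraries for short loops. For 13 to 15 amino acids it was 78.0%, 75.3% and 77.1% in LNP-P20-mAb and 76.1%, 75.3% and 77.8% in LNP-Ctrl libraries. The classes do not overlap in any library, and the difference was 17.8 ± 4.89 percentage points (SD, n = 6, higher in 6 of 6). The exact sign-flip permutation p was 0.031, the smallest that 6 libraries allow, and 0.102 after Benjamini-Hochberg adjustment over 13 measures, so it did not pass; a single measure at the smallest p cannot pass after adjustment over 13. Only 36 of 489 short-loop clonotypes carried a D call, 32 with TRBD1 and 4 with TRBD2. In the 13 to 15 class 1236 had TRBD1 and 590 had TRBD2, of 7811.

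TRBD1 lies before both J clusters and TRBD2 between them, so deletional joining links TRBD2 with TRBJ2 segments. In short loops TRBD2 was called in 0 of 145 clonotypes with a TRBJ1 segment and in 4 of 344 with TRBJ2, and in the 13 to 15 class in 4 of 2621 with TRBJ1 and in 586 of 5190 with TRBJ2. Among the D calls TRBD2 had 0% in LNP-P20-mAb 3 and 0%, 33.3% and 0% in LNP-Ctrl libraries 1, 2 and 3 for short loops, whereas LNP-P20-mAb 1 and 2 had no D call at all. These short-loop shares rest on 32 TRBD1 and 4 TRBD2 calls, and all 4 TRBD2 calls were in LNP-Ctrl 2. With so few calls per library, a share of 0% allows a wide range. In the same 4 libraries the 13 to 15 class had 34.4% in LNP-P20-mAb 3 and 30.9%, 32.2% and 30.7% in LNP-Ctrl libraries, and the difference did not pass (exact permutation p = 0.25). The share of TRBJ1 segments as a whole averaged 30.6 ± 5.79% in short loops and 31.9 ± 2.96% in the 13 to 15 class (exact permutation p = 0.719).

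On the mean of the libraries, the D call was rarer at each shorter length from 16 to 10 amino acids. The mean share without a D call over the 6 libraries was 98.1 ± 3.22% at 10 amino acids, 93.2 ± 5.59% at 11, 90.8 ± 2.19% at 12, 84.5 ± 0.748% at 13, 77.6 ± 2.56% at 14, 68.7 ± 2.00% at 15 and 61.5 ± 3.57% at 16. The step from 12 to 11 amino acids was not seen in every library. There the share fell in LNP-P20-mAb 3 (92.2% to 87.2%), LNP-Ctrl 1 (93.5% to 93.2%) and LNP-Ctrl 3 (91.1% to 89.8%). It rose in LNP-P20-mAb 1 (89.6% to 100%), LNP-P20-mAb 2 (91.2% to 100%) and LNP-Ctrl 2 (87.1% to 89.2%). With the clonotypes of all libraries together it was 90.5% at 12 and 90.9% at 11. Within TRBJ2-7 clonotypes alone, taken over all libraries, 94.7% of short loops had no D call, against 69.2% of loops of 13 to 15. Among the other J segments the shares were 91.1% of short loops and 78.3% of loops of 13 to 15. The length of sequence left for a D match moved with the call, as the next values show, and its part in the call was not tested.

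**Figure D3:**
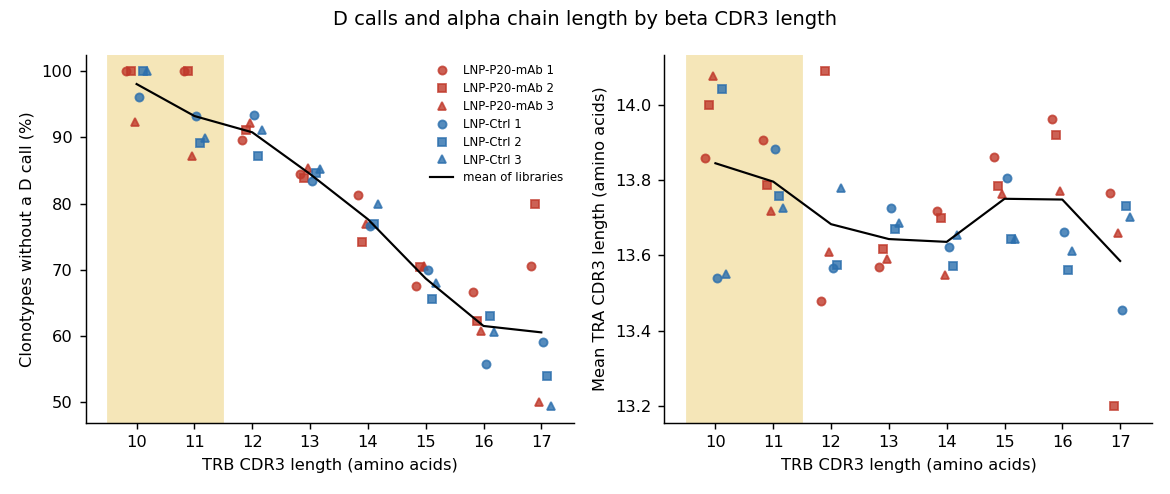
Share of clonotypes without a D call (%, left) and mean TRA CDR3 length (amino acids, right) by TRB CDR3 length, with 1 point per library (LNP-P20-mAb red, LNP-Ctrl blue), the mean of the 6 libraries as a line and the short loops on a yellow ground. The left mean runs down from 98.1% at 10 amino acids to 61.5% at 16, and the right one is highest at 10 and 11, with wide spread at 10, 12 and 17.

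Short loops lacked bases mainly between V and J, next at the J end, and least at the V end. This description has no test, since its parts add up to the length that set the classes. Short loops had 32.1 ± 0.256 bases and the 13 to 15 class 42.2 ± 0.0647 (mean over libraries, SD, n = 6). The part that matches the V start held 12.8 ± 0.291 bases in short loops and 13.7 ± 0.0525 in the 13 to 15 class. The part between held 4.60 ± 0.50 bases in short loops and 10.2 ± 0.120 in the 13 to 15 class. The part that matches the J end held 14.6 ± 0.503 bases in short loops and 18.3 ± 0.105 in the 13 to 15 class. Of the difference of -10.1 bases, -5.56 lay between, -3.66 at the J end and -0.87 at the V end.

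At the J end, both the segments used and the bases lost from them differed. The J segments used by short loops brought on average 19.7 bases untrimmed, against 20.8 in the 13 to 15 class, and lost 5.06 ± 0.532 bases, against 2.498 ± 0.0547. V ends lost 2.57 ± 0.310 bases in short loops and 1.92 ± 0.0813 in the 13 to 15 class. In 39 of 489 short-loop clonotypes no base was left between V and J, as in CEQYF and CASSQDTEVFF above, compared with 3 of 7811 in the 13 to 15 class. A run of 3 G, which both mouse D segments hold, stood between V and J in 37.7 ± 8.34% of short-loop clonotypes and in 80.2 ± 1.35% of the 13 to 15 class.

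**Figure D4:**
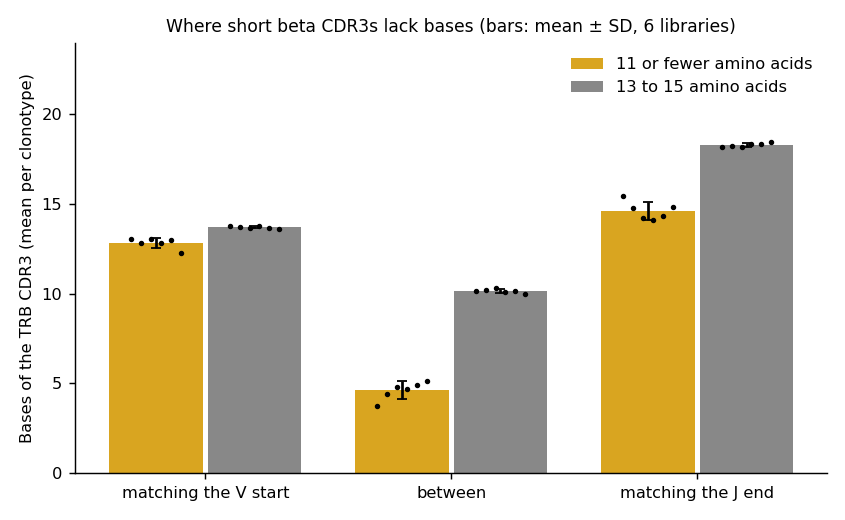
Mean number of bases of the TRB CDR3 that match the V start, lie between, and match the J end, for loops of 11 or fewer amino acids (gold) and of 13 to 15 (grey); bars are means over 6 libraries with SD, and dots are libraries. The gap between the bars is widest in the middle, 4.60 against 10.2 bases.

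The residues of the loops come from the same sequence whose length set the classes, with fewer bases between V and J in short loops. Tests on them are therefore not independent of the rule. Glycine share, hydropathy and net charge were among the 13 measures tested. None of them passed (exact sign-flip permutation, adjusted p = 0.102 for glycine share, 0.102 for hydropathy and 0.914 for net charge). Taking the residues between the first and last 3, glycine made up 15.4%, 16.4% and 16.3% in LNP-P20-mAb and 15.9%, 15.6% and 14.2% in LNP-Ctrl short loops. In the 13 to 15 class it made up 18.7%, 18.3% and 17.6% in LNP-P20-mAb and 18.6%, 18.4% and 17.9% in LNP-Ctrl libraries. All 6 libraries had the lower share in short loops, with differences of -3.72 to -1.3 percentage points. Mean hydropathy on the Kyte-Doolittle scale was -1.40 ± 0.108 in short loops and -1.19 ± 0.060 in the 13 to 15 class, lower in 6 of 6 libraries. Net charge averaged -0.818 in short loops and -0.826 in the 13 to 15 class. Over all libraries glutamate made up 15.3% of these residues in short loops and 8.73% in the 13 to 15 class. The most frequent end of 4 residues was EQYF in short loops (39.1% of clonotypes), the end that TRBJ2-7 encodes. In the 13 to 15 class it was TLYF (22.1%). Whether the end of the loop goes with the glutamate share was not tested.

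The partner alpha loops had a slightly larger mean length beside a short beta loop in every library, a difference that did not pass after adjustment. The mean TRA CDR3 length was 13.89, 13.89 and 13.87 amino acids in LNP-P20-mAb and 13.77, 13.81 and 13.70 in LNP-Ctrl libraries for short beta loops. Beside beta loops of 13 to 15 it was 13.72, 13.71 and 13.63 in LNP-P20-mAb and 13.71, 13.62 and 13.66 in LNP-Ctrl libraries. Each library had the larger mean beside short beta loops, by 0.0351 to 0.242 amino acids. The mean difference was 0.147 ± 0.0812 (SD, n = 6, exact permutation p = 0.031, adjusted p = 0.102 over 13 measures), and at 12 or fewer amino acids it was 0.0561 with an exact permutation p of 0.4375. Alpha loops of 12 or fewer amino acids accompanied 59 short-loop clonotypes (12.1%) and 17.8% of the 13 to 15 class, while alpha loops of 15 or more accompanied 24.3% of short-loop clonotypes and 24.6% of the 13 to 15 class.

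The alpha mean did not run on with beta length. It was 13.84 ± 0.244 at 10 amino acids and 13.80 ± 0.0796 at 11, but 13.68 ± 0.222 at 12, 13.64 ± 0.0602 at 13, 13.64 ± 0.0681 at 14 and 13.75 ± 0.0892 at 15. Among short-loop clonotypes the LNP-P20-mAb libraries lay above the LNP-Ctrl libraries without overlap (LNP-P20-mAb 13.88 ± 0.0120 and LNP-Ctrl 13.76 ± 0.0585), with an exact permutation p of 0.1, the smallest possible, and 0.533 after adjustment. A second TRA chain was listed in 12.996 ± 4.06% of short-loop clonotypes and 12.9 ± 1.00% of the 13 to 15 class (exact permutation p = 0.9375).

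Of 78 clonotypes of 20 or more cells, 1 had a short loop (1.28%, against 4.60% of all 10624 clonotypes) and 55 were in the 13 to 15 class, with the other 22 at other lengths. Clones that LNP-P20-mAb 1 and 2 share are counted in each of them, and no test was made on this count. The largest short-loop clonotypes held 15, 9 and 17 cells in LNP-P20-mAb and 25, 4 and 14 cells in LNP-Ctrl libraries. The largest of the 13 to 15 class held 253, 154 and 414 cells in LNP-P20-mAb and 468, 92 and 15 cells in LNP-Ctrl libraries. LNP-Ctrl 3 was the library where both were of similar size. At the limit of the rule, the largest clonotype held 17 cells at 11 amino acids and 264 at 12.

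Counted by cell, 39.5%, 44.8% and 47.8% of short-loop cells in LNP-P20-mAb and 39.7%, 16.3% and 12.3% in LNP-Ctrl libraries belonged to clonotypes of 2 or more cells. In the 13 to 15 class it was 85.0%, 83.4% and 61.5% of cells in LNP-P20-mAb and 51.7%, 28.3% and 9.66% in LNP-Ctrl libraries. The share was lower in short loops in 5 of 6 libraries, with differences of -45.5 and -38.6 percentage points in LNP-P20-mAb 1 and 2, which carry the same clones, and LNP-Ctrl 3 went the other way. The difference averaged -19.9 ± 18.3 percentage points and did not pass (exact permutation p = 0.0625, adjusted p = 0.163). It was -8.77 without LNP-P20-mAb 1 and 2 (exact permutation p = 0.25) and -3.02 with a limit of 12 amino acids (exact permutation p = 0.4375). Counted once per clonotype, 7.75 ± 3.79% of short-loop clonotypes and 12.7 ± 8.05% of the 13 to 15 class had 2 or more cells (exact permutation p = 0.125). That difference of -4.94 percentage points was -0.874 without LNP-P20-mAb 1 and 2, -1.58 with them pooled and -1.11 for loops of 10 or fewer amino acids (exact permutation p = 0.5, 0.25 and 0.4375 in that order). Over all libraries, 459 of 489 short-loop clonotypes (93.9%) and 91.9% of the 13 to 15 class were single cells. Of short-loop cells 3.94% lay in a clone of at least 20 cells, compared with 31.3% in the 13 to 15 class. The 3.94% is the single clone of 25 cells in LNP-Ctrl 1, and the other 5 libraries had none. The share in the 13 to 15 class was 68.4%, 60.1% and 38.6% in LNP-P20-mAb and 32.2%, 13.1% and 0% in LNP-Ctrl libraries.

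**Figure D5:**
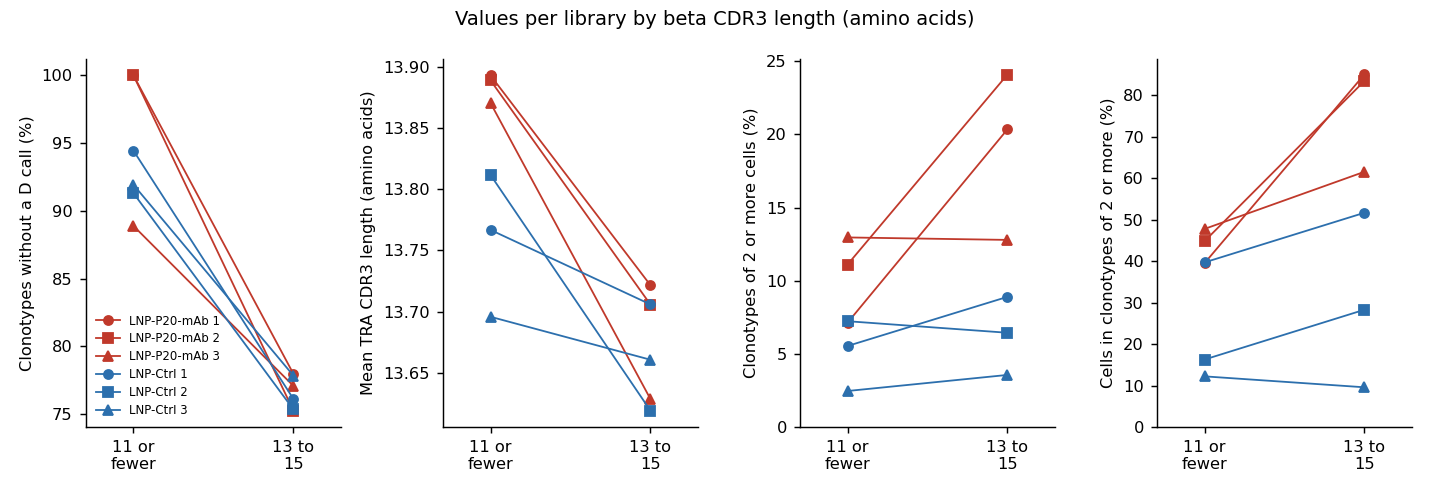
Values of each library for loops of 11 or fewer and of 13 to 15 amino acids, with a line joining the classes of a library (LNP-P20-mAb red, LNP-Ctrl blue): clonotypes without a D call (%), mean TRA CDR3 length (amino acids), clonotypes of 2 or more cells (%) and cells in such clonotypes (%). All lines go down to the right in the first and second panels, whose axes do not start at 0, and in the fourth 5 of 6 go up to the right, most in LNP-P20-mAb 1 and 2.

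None of the largest short-loop clones was shared between the treatments, where sharing was rare for any clonotype. In the comparison class of longer loops, LNP-Ctrl 3 shared 1 clonotype with LNP-P20-mAb 1 and 1 with LNP-P20-mAb 2. These were 0.242% and 0.334% of that class in the LNP-P20-mAb libraries, and the other pairs across treatments shared none. Among all short-loop clonotypes, LNP-P20-mAb 3 and LNP-Ctrl 3 shared 1. The absence therefore does not set the largest short-loop clones apart. In LNP-P20-mAb 1 and 2 the largest was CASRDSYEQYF of TRBV29 and TRBJ2-7, with TRAV9-1 and TRAJ21, in 15 and 9 cells. In LNP-P20-mAb 3 they were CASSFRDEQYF (TRBV14 and TRBJ2-7, 17 cells), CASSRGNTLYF (TRBV29 and TRBJ1-3, 12 cells) and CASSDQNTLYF (TRBV13-3 and TRBJ2-4, with the TRAV13-2 chain, 5 cells). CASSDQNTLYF has no base between V and J. In LNP-Ctrl 1 the largest was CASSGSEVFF with 25 cells, 0.750% of the library (95% exact interval 0.486% to 1.11%), followed by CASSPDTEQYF (TRBV16 and TRBJ2-7, 17 cells) and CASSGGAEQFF (TRBV13-3 and TRBJ2-1, 7 cells). In LNP-Ctrl 2 none exceeded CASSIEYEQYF (TRBV19 and TRBJ2-7) with 4 cells, and in LNP-Ctrl 3 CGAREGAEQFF (TRBV20 and TRBJ2-1) had 14.

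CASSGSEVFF, the 1 short loop among the large clones, had alike receptors in another library. It was paired with TRAV3N-3 and TRAJ15 in the alpha loop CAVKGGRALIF. In LNP-Ctrl 3, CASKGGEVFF (3 cells) had the same TRBV13-3, TRBJ1-1, TRAV3N-3 and TRAJ15 segments with the alpha loop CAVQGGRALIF, and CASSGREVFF (1 cell) had them with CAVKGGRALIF again. The 3 beta loops have 10 amino acids each and differ in the bases between V and J printed above. Those 4 segments together were found in 3 of 489 short-loop clonotypes and in 0 of 7811 of the 13 to 15 class and 0 of 2324 of the other lengths, also when all named copies of TRAV3 are counted. TRAV3N-3 with TRAJ15 was in 4 short-loop clonotypes, 12 of the 13 to 15 class and 3 of other lengths, and TRBV13-3 with TRBJ1-1 in 12 short-loop clonotypes, 46 of the 13 to 15 class and 15 of other lengths. These receptors were chosen after their values were seen, and no test was made.

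How often a beta loop was found again in another library did not differ between the classes beyond the spread of the libraries. With LNP-P20-mAb 1 and 2 counted as 1 source, 8 of 469 short receptors (V, J and amino acids of the beta loop, 1.71%) and 112 of 7525 of the 13 to 15 class (1.49%) were in 2 or more sources. Per library, the share of receptors found elsewhere was 0%, 5.56% and 3.77% in LNP-P20-mAb and 6.74%, 3.65% and 1.89% in LNP-Ctrl libraries for short loops. For 13 to 15 amino acids it was 5.94%, 9.62% and 4.24% in LNP-P20-mAb and 3.71%, 2.49% and 2.12% in LNP-Ctrl libraries. The difference averaged -1.09 ± 3.33 percentage points, lower in 4 of 6 libraries (exact permutation p = 0.4375), and its sign turned without LNP-P20-mAb 1 and 2 (1.07, p = 0.125). It was -0.027 without LNP-P20-mAb 1 and -3.23 without LNP-Ctrl 1 (exact permutation p = 0.9375 and 0.0625).

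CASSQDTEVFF recurred most, in LNP-P20-mAb 3, LNP-Ctrl 2 and LNP-Ctrl 3, as 4 clonotypes of 1 cell each with the same 33 bases. Its loop holds 17 bases that match TRBV5 and 16 that match TRBJ1-1, with none between. In 3 of the 4 clonotypes, from LNP-P20-mAb 3 and LNP-Ctrl 3, the alpha chain was TRAV4-4-DV10 with TRAJ50 and the loop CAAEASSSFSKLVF, and in LNP-Ctrl 2 it was TRAV6-3 with TRAJ21. This was the only one of 480 paired short receptors (both chains in amino acids) in 2 or more sources, 0.208%, against 19 of 7702 of the 13 to 15 class, 0.247%. The other 7 recurrent beta loops, among them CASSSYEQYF (TRBV10 and TRBJ2-7, no base between) and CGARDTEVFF (TRBV20 and TRBJ1-1), were in 2 sources each. Different alpha V segments went with 6 of these 7, and the exception was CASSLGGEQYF with TRAV13-2.

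Few short-loop cells carried an invariant alpha chain. TRAV11 or TRAV11D with TRAJ18, the chain of invariant NKT cells, was in 2 of 635 short-loop cells (0.315%) and 36 of 13922 of the 13 to 15 class (0.259%). TRAV1 with TRAJ33, the chain of MAIT cells, was in 0 of 635, which allows up to 0.472%, and in 12 of 13922 (0.0862%). The number of molecules behind a call did not pass the test: the mean log2 number of TRB UMIs per cell was 3.95 ± 0.186 in short loops and 4.06 ± 0.240 in the 13 to 15 class, and of TRA UMIs 2.77 ± 0.296 in short loops and 2.86 ± 0.320 in the 13 to 15 class (exact permutation p = 0.281 for each).

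Whether the treatments changed the contrast between short and longer loops was tested last. No segment passed for a difference of its contrast between LNP-P20-mAb and LNP-Ctrl libraries by edgeR, where the lowest adjusted p was 0.11 and 8 of 147 segments had an unadjusted p of 0.05 or lower. DESeq2 was not run on this term. For the measures per library the smallest possible exact permutation p is 0.1. It was reached by the share of cells in clonotypes of 2 or more, whose contrast averaged -32.6 ± 16.7 percentage points for LNP-P20-mAb and -7.10 ± 8.43 for LNP-Ctrl. It was also reached by the contrast in recurrence (LNP-P20-mAb -3.49 ± 2.78 and LNP-Ctrl 1.32 ± 1.64 percentage points) and in the TRBJ1 share (LNP-P20-mAb 3.32 ± 5.96 and LNP-Ctrl -6.04 ± 2.89). The last to reach it was the contrast in log2 TRB UMIs (LNP-P20-mAb -0.27 ± 0.13 and LNP-Ctrl 0.06 ± 0.11). None passed after adjustment over 12 measures (adjusted p = 0.3).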

How the data were processed

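Members and lists were chosen with earlier results of these data known. The deposited files list 1 TCR chain per line, with segments, CDR3, and read and UMI counts per chain as the authors made them; counts are raw. Cell Ranger 8.0.1 is named in the submitters' processing notes, as are mouse builds whose role is not stated; coordinates were not used. The calling of cells, chains and D segments was the authors', and how many bases between V and J a D call needs was not examined. Barcodes with 2 or more TRB chains (candidate doublets) or with TRB only were left out of the comparisons. No germline sequence was used: the V and J ends are the extensions shared by at least 50% of a segment's chains that reach them, while at least 20% of chains do.

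Segment usage was tested on numbers of clonotypes with edgeR 4.0.16 (quasi-likelihood, library as block, number of clonotypes as library size, segments with 30 or more clonotypes, Benjamini-Hochberg) in R 4.3.3, and with DESeq2 1.42.0 as an alternative. The SE of a log2 difference was derived as its absolute value divided by the square root of the quasi-likelihood F. The edgeR fit was also run on simulated clonotype numbers, drawn for each segment on its own and without clones shared between libraries. Single values within libraries used two-sided exact sign-flip permutation tests over 64 flips, and treatments were compared over 20 assignments. Named segments are all those called. Named receptors are the 3 largest short-loop clonotypes of 3 or more cells per library (not all are spelled out), those in 3 or more sources and the 5 shortest (ties by cells, then by name); others are said to be chosen after their values were seen, or are given as examples of a count. Python 3.11.15 with scipy 1.17.1, pandas 2.3.3, matplotlib 3.10.9 and numpy 2.4.6 did the rest. Alternatives were the loop limit, the comparison class, a UMI minimum, the clonotype definition, scaling, filters, pooling or leaving out libraries, and counting cells. With 18 to 161 short-loop clonotypes per library, a share of 0 allows 1.86% to 16.7%.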

Additional observations from a re-analysis of the deposited data

Results flagged for a closer look

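Barcodes outside the comparisons also carried short beta loops, given here as values only. Of 1809 barcodes with a TRB chain only, 72 had a short loop, 3.98% (95% exact interval 3.13% to 4.99%; 1.29% to 5.70% by library). Of 3688 TRB chains on the 1844 barcodes with 2 or more TRB chains, 152 were short, 4.12% (3.50% to 4.81%; 0.748% to 10.04% by library). Among the barcodes used it was 3.32% (3.07% to 3.59%; 1.32% to 4.79% by library). The intervals cover counting error only and are narrower than the range over libraries.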

How the results depend on the processing

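The count of 9 segments became 5 under TMM scaling and 3 when cells were counted, and lay between 7 and 11 when 1 library was left out; of the 3, 2 were among the 9. Loops of 10 or fewer amino acids gave 6 segments, 3 of them among the 9, and DESeq2 gave 7, with 108 of 147 adjusted p-values undefined. The difference in clonotypes without a D call was 16.7 with LNP-P20-mAb 1 and 2 pooled, 15.1 without both (chosen after the data were seen) and 16.4 to 19.03 with 1 library left out. The difference in TRA length was 0.156 pooled, 0.133 without both, 0.129 to 0.170 with 1 left out, 0.249 for loops of 10 or fewer (exact permutation p = 0.1875) and 0.0561 for 12 or fewer. All but the last 2 kept every library on 1 side, where 5 libraries cannot give a p below 0.0625 and 4 none below 0.125; the cause of the last 2 was not tested. The difference in cells of expanded clonotypes passed an unadjusted p of 0.05 for loops of 10 or fewer (-23.5) and was -24.3 to -14.7 with 1 left out. The difference in recurrence became 1.07 without LNP-P20-mAb 1 and 2, and the treatment difference in the share of clonotypes turned from -0.235 to 0.0157 without LNP-P20-mAb 3; with 1 library left out its lowest value was -0.481, and over all alternatives it was -0.832, at a limit of 12 amino acids; the cause was not tested. Of the 114 alternatives run for results other than single segments, 91 were counted as unchanged. For 14 of these 91, the alternatives of the count of segments, unchanged means a similar count and not the same segments. For the rest it means the same direction and the same side of the threshold. Counting jointly named TRBV12-2 and TRBV13-2 chains as TRBV13-2, also chosen after the data were seen, left 9 segments.

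Deviations in segment usage had correlations of 0.0916, 0.0311 and -0.0859 between same-numbered libraries. Between libraries of different numbers they ran from -0.297 to 0.334. These few correlations cannot decide whether the numbers pair the libraries. With the replicate block, the treatment difference was -0.235 in the share of clonotypes (exact permutation p = 0.75) and -2.33 in the share of cells (exact permutation p = 0.25, the smallest of 3 pairs). LNP-P20-mAb 2 had 18 short-loop clonotypes, which limits every value of that library.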
